A study of Mus musculus with 32 samples.

Results

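Oxidative phosphorylation (OXPHOS) runs on 5 protein complexes of the inner mitochondrial membrane, most of whose subunits are encoded in the nucleus. The genes of these subunits were chosen by symbol alone, as names starting with Nduf followed by a, b, c, s or v and a digit, the 4 Sdh genes, names starting with Uqcr, Cyc1, names starting with Cox and a digit from 4 to 8, and names starting with Atp5. The rule found 84 of the 24952 genes in the count table, of which 37 belonged to complex I, 4 to complex II, 9 to complex III, 18 to complex IV and 16 to complex V. A total of 80 of them passed the filter on low counts (at least 1 CPM, the count scaled to a common library size, in at least 8 libraries), as did 13990 of all genes. The other 4, Cox4i2, Cox6b2, Cox7b2 and Cox8c, are described with complex IV.

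RNA was measured in neuromuscular junction (NMJ) and extra-synaptic (xNMJ) regions cut by laser from cross sections of the tibialis anterior, a fast hind limb muscle of the mouse. All mice were male wild-type C57BL/6JRj, were caged singly and were fed an AIN93M diet, for a shorter time in the 10-month than in the 30-month groups. The 32 libraries formed 4 groups of 8, an NMJ and an xNMJ group at 10 months (10m) and the same at 30 months (30m). NMJs were found with α-bungarotoxin, which binds acetylcholine receptors, and many captured regions were pooled for each library. The labels did not say which libraries came from separate animals, so that p-values here measure the spread between these samples. Total counts ranged from 4026648 in 10m xNMJ replicate 1 to 16516788 in 10m NMJ replicate 8.

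As background, complexes I and II take electrons from NADH and succinate, complex III passes them to cytochrome c, complex IV gives them to oxygen, and complex V makes ATP from the proton gradient built by complexes I, III and IV. Several complex IV subunits exist as isoforms, with Cox6a2, Cox7a1 and Cox8b made mainly in heart and skeletal muscle and Cox6a1, Cox7a2 and Cox8a made broadly. Mitochondria gather beneath the muscle membrane at the NMJ, a region that also holds fibre nuclei with their own gene program and, above it, terminal Schwann cells. Genes encoded in mitochondrial DNA were not analysed here.

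Synaptic markers followed the labels with an exception in 1 library and in 1 gene. Chrne, the adult ε subunit of the acetylcholine receptor, was at 137 to 377 CPM in 10m NMJ and at 193 to 544 CPM in 30m NMJ. In xNMJ it was at 0 to 1.12 CPM in the 8 libraries of 10 months and at 0 to 0.24 CPM in 7 libraries of 30 months. 30m xNMJ replicate 5 was at 93.9 CPM for Chrne, 109 CPM for Etv5 and 443 CPM for Prkar1a, between the other xNMJ and the NMJ libraries, and the values without this library are given with the members' 30-month counts over all complexes and in complex III. Of the 10 synaptic genes checked, 9 were higher at the NMJ at both ages, whereas Lrp4 was lower at both. Acta1 and Ckm, markers of the muscle fibre itself, were present in all groups, with Acta1 at a mean of 24259 CPM (xNMJ) and 14454 CPM (NMJ) at 10 months and of 24573 and 13962 CPM at 30 months. Mean insert sizes differed between regions at 10 months, at 79 to 108 bases in xNMJ against 109 to 131 bases in 7 NMJ libraries and 52 bases in NMJ replicate 8, and overlapped at 30 months, at 79 to 130 bases (xNMJ) against 101 to 129 bases (NMJ). With insert size as a covariate, 35 members were lower at 10 months and 51 at 30 months on the TMM scale described next, as were 434 and 565 of the 13990 genes.

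How the members compared between regions depended on the scale. The share of all counts that fell on the 84 genes averaged 12.1% ± 3.14 in xNMJ and 11.8% ± 2.26 in NMJ at 10 months (SD, n = 8 each), and 10.96% ± 2.998 in xNMJ and 10.05% ± 1.9004 in NMJ at 30 months. The shares ranged from 9.20 to 17.7% (xNMJ) and from 9.86 to 16.2% (NMJ) at 10 months and from 7.73 to 16.6% (xNMJ) and from 7.54 to 13.5% (NMJ) at 30 months, so that the regions overlapped at both ages. The 100 most abundant genes of each library took 48.3 to 58.9% of the counts (xNMJ) against 37.8 to 44.5% (NMJ) at 10 months and 48.5 to 60.2% against 38.8 to 43.9% at 30 months, with no overlap between regions. The TMM factors, which edgeR sets so that most genes show little change, were 0.740 to 0.906 (xNMJ) against 1.12 to 1.30 (NMJ) at 10 months, and 0.686 to 1.02 against 1.14 to 1.35 at 30 months. A log2 fold change on the TMM scale is therefore a change relative to the median gene tested, and one on library totals is a change in share of the counts. Without TMM, the median of all genes moved by 0.55 at 10 months and by 0.63 at 30 months on the log2 scale.

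**Figure D1:**
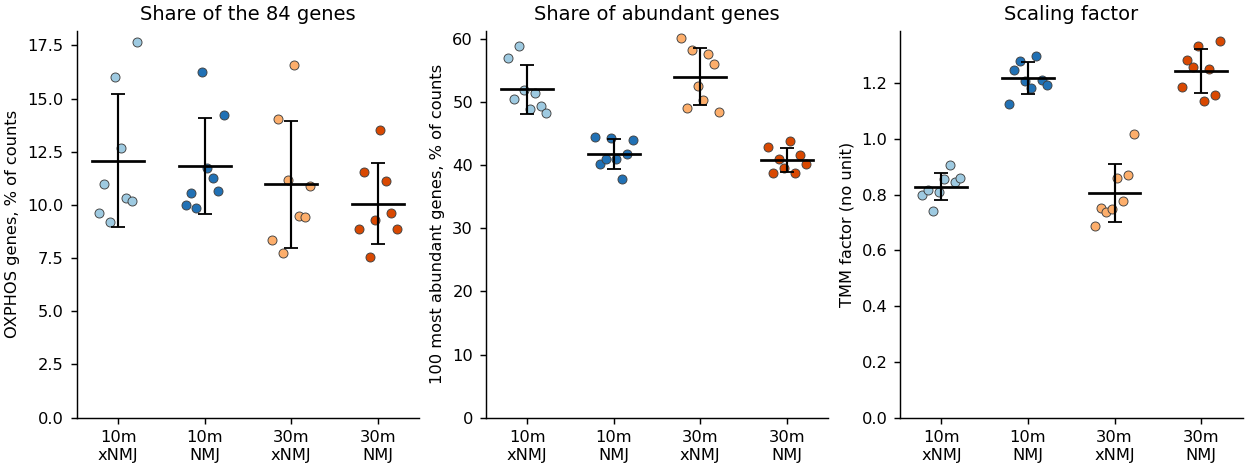
Share of counts on the 84 OXPHOS genes (left, %), share of counts on the 100 most abundant genes of each library (middle, %) and TMM scaling factor (right, no unit) in the 4 groups. Points are libraries, and bars give the mean and SD of 8 libraries. The OXPHOS shares of the 2 regions overlapped at both ages, whereas the share of the most abundant genes was lower in every NMJ library than in every xNMJ library of the same age.

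The first question was whether these transcripts differed at the NMJ from the rest of the fibre. Relative to the median gene (TMM), the members were lower at the NMJ at both ages, whereas on library totals their median change was close to 0. In bulk samples such as these, fewer cells of a type and less RNA per cell cannot be told apart. At 10 months 36 of the 80 members tested fell and none rose (edgeR quasi-likelihood test, adjusted p under 0.05 over all genes), where 5.05% of all genes fell and 6.5% rose. At 30 months 48 members fell and none rose, where 4.25% of all genes fell and 5% rose. The median log2 fold change of the members on the TMM scale was −0.55 at 10 months and −0.72 at 30 months, beside 0.00 and −0.01 for all genes, and 77 and 78 of the 80 were below 0, as were 49.8% and 50.7% of all genes. Of the 1116 genes whose mean was 100 CPM or more, 77 were members, and of all 1116 a share of 30.6% fell at 10 months and 29.8% at 30 months, with medians of −0.31 and −0.38. A total of 33 members fell at both ages, which was 91.7% of those that fell at 10 months and 68.8% of those that fell at 30 months. The same overlap was not computed over all genes, so these shares have no background beside them. Without 30m xNMJ replicate 5, 40 members fell at 30 months, and their median was −0.62. Of these 40, 12 belonged to complex I, 2 to complex II, 7 to complex III, 8 to complex IV and 11 to complex V. Of all 13933 genes tested without this library, 640 fell and 836 rose, against 595 and 700 of 13990 with it.

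On library totals, 7 members fell and 2 rose at 10 months, where 1.5% of all genes fell and 19.1% rose. Those that fell included Ndufa10 of complex I, Cyc1 and Uqcrc1 of complex III, and Atp5a1, Atp5d and Atp5e of complex V, and the 2 that rose were Cox6a1 and Cox8a. At 30 months none fell and Cox6a1 rose, where 0.536% of all genes fell and 19.2% rose. The members' median log2 fold change was then 0.00 at 10 months and −0.10 at 30 months, beside 0.56 and 0.61 for all genes. On this scale 39 of the 80 members were below 0 at 10 months and 53 at 30 months. The members' median lay 0.55 (10 months) and 0.71 (30 months) below that of all genes on the TMM scale, a distance that library totals cannot change much because they shift all genes nearly alike, whereas limma on log2(TPM + 1) put the members' median minus that of all genes at −0.46 and −0.59.

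**Figure D2:**
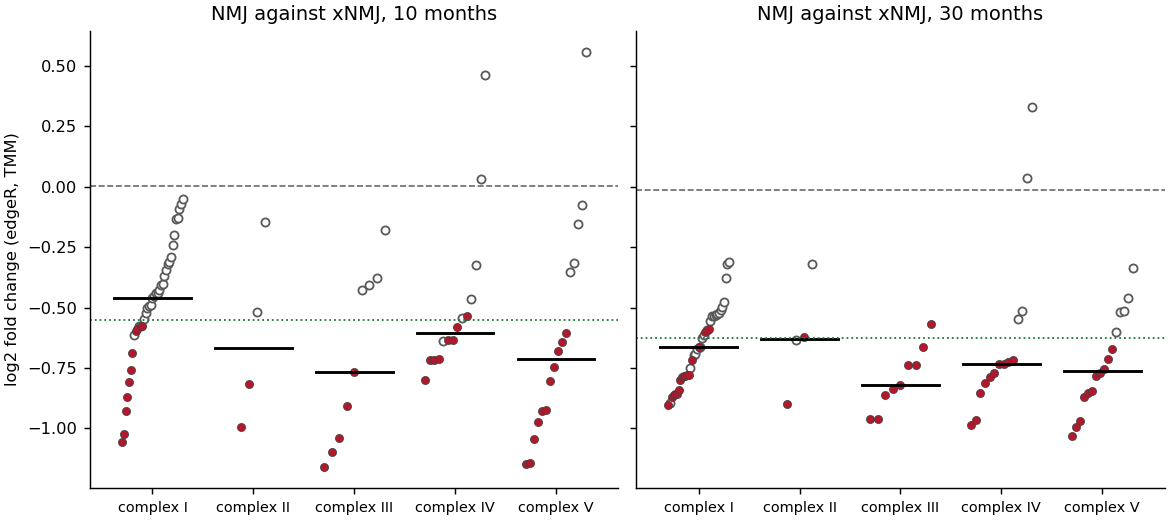
Log2 fold change of NMJ against xNMJ (edgeR, TMM scale) of the 80 members tested, by complex, at 10 months (left) and 30 months (right). Each point is a gene, filled where the adjusted p was under 0.05, thick lines are medians of the complexes, the dashed line is the median of all genes, and the dotted line is where 0 would lie on library totals. Most members lie below the dashed line but on either side of the dotted one. On library totals 7 members fell at 10 months and none at 30 months.

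Complex I, which oxidises NADH, had the smallest median log2 fold change (TMM) of the complexes at 10 months, −0.46, with 10 of 37 members lower, and reached −0.66 with 16 of 37 lower at 30 months. All 37 were below 0 at both ages on this scale. Ndufv1 (chr19:4007384-4012806, minus strand, GRCm38), the subunit that binds NADH, was at 378, 446 and 496 CPM (lowest, median and highest of 8) in 10m xNMJ and at 159, 248 and 323 CPM in 10m NMJ. The groups did not overlap in CPM at 10 months, whereas at 30 months, at 205, 286 and 624 CPM in xNMJ and at 180, 229 and 261 CPM in NMJ, they did. In TPM Ndufv1 overlapped between regions at both ages. It changed by −0.93 ± 0.17 (TMM, SE, adjusted p = 0.000321, edgeR) at 10 months and by −0.48 ± 0.17 (adjusted p = 0.0834) at 30 months, or by −0.37 (adjusted p = 0.148, edgeR) and 0.16 (adjusted p = 0.578) on library totals. Its 30-month change (TMM) was −0.26 without 30m xNMJ replicate 2 and −0.55 without 30m xNMJ replicate 1, where it passed.

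The most abundant complex I members per length were Ndufa4 and Ndufa1. Ndufa4 (chr6:11900292-11907497, minus strand), counted here by its symbol although its protein has since been assigned to complex IV, had a TPM of 9546 ± 1532 (xNMJ) and 8628 ± 1342 (NMJ) at 10 months, and of 8183 ± 1556 (xNMJ) and 7125 ± 1327 (NMJ) at 30 months (mean ± SD, n = 8). Its change on the TMM scale was −0.59 ± 0.18 at 10 months (adjusted p = 0.0231, edgeR) and −0.79 ± 0.18 at 30 months (adjusted p = 0.00287). Ndufa1, a small membrane-arm subunit encoded on the X chromosome, had a TPM of 5626 ± 975, 7091 ± 1835, 4719 ± 619 and 4719 ± 700 in the same order. It changed by −0.13 ± 0.18 at 10 months (TMM, adjusted p = 0.714, edgeR) and by −0.59 ± 0.18 at 30 months (adjusted p = 0.0336), and on library totals by 0.42 and 0.03. With a library left out its 10-month change (TMM) lay between −0.27 and −0.05. Other complex I members that fell on the TMM scale at both ages included Ndufa2, Ndufa3, Ndufa9, Ndufa10, Ndufc1, Ndufs1 and Ndufs6. Ndufa5, Ndufa6, Ndufb2, Ndufb10, Ndufs4 and Ndufv3 passed at 30 months and missed the threshold at 10 months. Ndufa4l2 (chr10:127514967-127517154, plus strand), a relative of Ndufa4 known from hypoxic cells, was at 0 to 13.2 CPM in all libraries and passed in neither comparison.

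Complex II, succinate dehydrogenase, is the smallest complex and the only member of the tricarboxylic acid (TCA) cycle among them. The subunits were unequal in level, at a mean TPM over the 32 libraries of 884 for Sdhb, 388 for Sdha, 167 for Sdhd and 90.0 for Sdhc. Sdhb (chr4:140961203-140979193, plus strand), the iron-sulfur subunit, was at 762, 1097 and 1891 CPM in 10m xNMJ and at 396, 555 and 1300 CPM in 10m NMJ, with 6 of 8 NMJ libraries below all xNMJ libraries. It changed by −0.82 ± 0.26 (TMM, adjusted p = 0.0328, edgeR) at 10 months and by −0.90 ± 0.26 (adjusted p = 0.0205) at 30 months. Sdhc, a membrane anchor that binds haem, was at 183, 277 and 333 CPM in 10m xNMJ and at 98.3, 123 and 195 CPM in 10m NMJ, a change of −0.99 ± 0.23 (TMM, adjusted p = 0.00311, edgeR), and at 30 months changed by −0.63 ± 0.23 (adjusted p = 0.0804). Sdha, the flavoprotein, changed by −0.52 ± 0.18 (adjusted p = 0.0536, edgeR) and by −0.62 ± 0.18 (adjusted p = 0.0200). The call of Sdhb was lost in 9 of 32 fits that each left out a library at 10 months and in 2 of 32 at 30 months, and that of Sdha in 1 of 32 at 30 months, whereas Sdha passed in 7 of 32 at 10 months and Sdhc in 3 of 32 at 30 months. Sdhd, the other anchor, changed by −0.15 ± 0.32 and by −0.32 ± 0.32 and passed at neither age. With a library left out the Sdhd change lay between −0.30 (without 10m NMJ replicate 4) and −0.003 (without 10m NMJ replicate 1) at 10 months, and between −0.65 (without 30m NMJ replicate 5) and −0.06 (without 30m xNMJ replicate 5) at 30 months. No Sdh gene passed on library totals.

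Complex III, which passes electrons from ubiquinol to cytochrome c, had a median log2 fold change (TMM) of −0.77 at 10 months, with 5 of 9 members lower, and of −0.82 at 30 months, with all 9 lower. Without 30m xNMJ replicate 5, 7 of the 9 were lower at 30 months. Cyc1 (chr15:76343523-76346260, plus strand), cytochrome c1, was at 669, 854 and 1239 CPM in 10m xNMJ and at 285, 417 and 470 CPM in 10m NMJ. At 30 months it was at 484, 615 and 1110 CPM in xNMJ and at 286, 407 and 464 CPM in NMJ. The regions did not overlap in CPM at either age, although they did in TPM at both. The change was −1.16 ± 0.18 (TMM, adjusted p = 1.48e-05, edgeR) at 10 months and −0.84 ± 0.17 (adjusted p = 0.00135) at 30 months. On library totals Cyc1 changed by −0.61 (adjusted p = 0.0157, edgeR) and by −0.19 (adjusted p = 0.472).

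Uqcrc1 (chr9:108936633-108949623, plus strand), a large core protein of complex III, likewise showed no overlap, at 565 to 1002 CPM against 307 to 444 CPM at 10 months and at 481 to 1313 CPM against 262 to 445 CPM at 30 months. In TPM Uqcrc1 overlapped between regions at both ages. Its change was −1.10 ± 0.17 (TMM, adjusted p = 2.06e-05, edgeR) and −0.96 ± 0.17 (adjusted p = 0.000193). Uqcrc2, the other core protein, and Uqcrfs1, the Rieske iron-sulfur protein, fell at both ages, with log2 fold changes (TMM) of −1.04 and −0.66 for Uqcrc2 and of −0.91 and −0.96 for Uqcrfs1. The 2 members with the highest TPM did not pass at 10 months and fell at 30 months. Uqcr10 had a TPM of 6767 ± 1279 in 10m xNMJ and 6973 ± 888 in 10m NMJ, and Uqcr11 of 6326 ± 1428 and 7835 ± 1807. Uqcr11 (chr10:80402997-80406830, minus strand) changed by −0.18 ± 0.19 (TMM, adjusted p = 0.631, edgeR) at 10 months and by −0.74 ± 0.19 (adjusted p = 0.0100) at 30 months, and Uqcr10 by −0.43 ± 0.17 (adjusted p = 0.116) and −0.57 ± 0.17 (adjusted p = 0.0320). With a library left out the 10-month change of Uqcr11 lay between −0.32 and −0.07.

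Complex V, the ATP synthase, had a median log2 fold change (TMM) of −0.71 at 10 months and −0.76 at 30 months, with 11 of 16 members lower at each age. Atp5a1 and Atp5b (the α and β subunits), Atp5c1, Atp5d, Atp5e, Atp5f1, Atp5g3, Atp5j2, Atp5k, Atp5l and Atp5o fell at both ages on this scale. Atp5e (chr2:174461072-174464105, minus strand), the ε subunit of the catalytic head's stalk, was at 3519, 4412 and 5890 CPM in 10m xNMJ and at 1775, 2123 and 3355 CPM in 10m NMJ. At 30 months it was at 3501, 3958 and 6811 CPM in xNMJ and at 1705, 2211 and 2556 CPM in NMJ. The regions overlapped in CPM at neither age, although they did in TPM at both. The change was −1.04 ± 0.16 (TMM, adjusted p = 2.17e-05, edgeR) and −1.03 ± 0.16 (adjusted p = 3.82e-05). On library totals the change was −0.50 (adjusted p = 0.0185, edgeR) at 10 months and −0.39 (adjusted p = 0.0643) at 30 months.

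Atp5a1 (chr18:77773729-77782869, plus strand) was at 2260 to 3845 CPM in 10m xNMJ and at 1232 to 1886 CPM in 10m NMJ, with a change of −1.14 ± 0.16 (TMM, adjusted p = 4.25e-06, edgeR). Atp5d (chr10:80138632-80145818, plus strand), the δ subunit, did not overlap between regions at 10 months on the CPM scale, at 963 to 1421 against 413 to 709, or on the TPM scale, at 1222 to 1788 against 655 to 1159. It changed by −1.15 ± 0.17 (TMM, adjusted p = 1.42e-05, edgeR). At 30 months Atp5a1 and Atp5d overlapped between regions in both CPM and TPM. On library totals neither passed at 30 months (adjusted p = 0.359 for Atp5a1 and 0.438 for Atp5d, edgeR). Atp5k (chr5:108433244-108434448, minus strand) and Atp5l (chr9:44912557-44920742, minus strand), subunits e and g, which join ATP synthases into dimers, had non-overlapping CPM values but overlapping TPM values at both ages. At 30 months they changed by −0.99 ± 0.18 (TMM, adjusted p = 0.000277, edgeR) and by −0.97 ± 0.14 (adjusted p = 1.68e-05). The 3 genes of the membrane ring subunit c encode the same mature protein. Atp5g3 fell, with log2 fold changes (TMM) of −0.80 and −0.77, whereas Atp5g2, at −0.35 and −0.34, and Atp5g1, at −0.08 and −0.46, passed at neither age, and the difference between the 3 genes was not tested. Atp5g1 varied widely within 10m xNMJ, from 818 to 4941 CPM. Its change was 0.18 without 10m xNMJ replicate 4 and −0.23 without 10m NMJ replicate 4 at 10 months, and −0.18 without 30m xNMJ replicate 5 and −0.61 without 30m NMJ replicate 5 at 30 months.

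**Figure D3:**
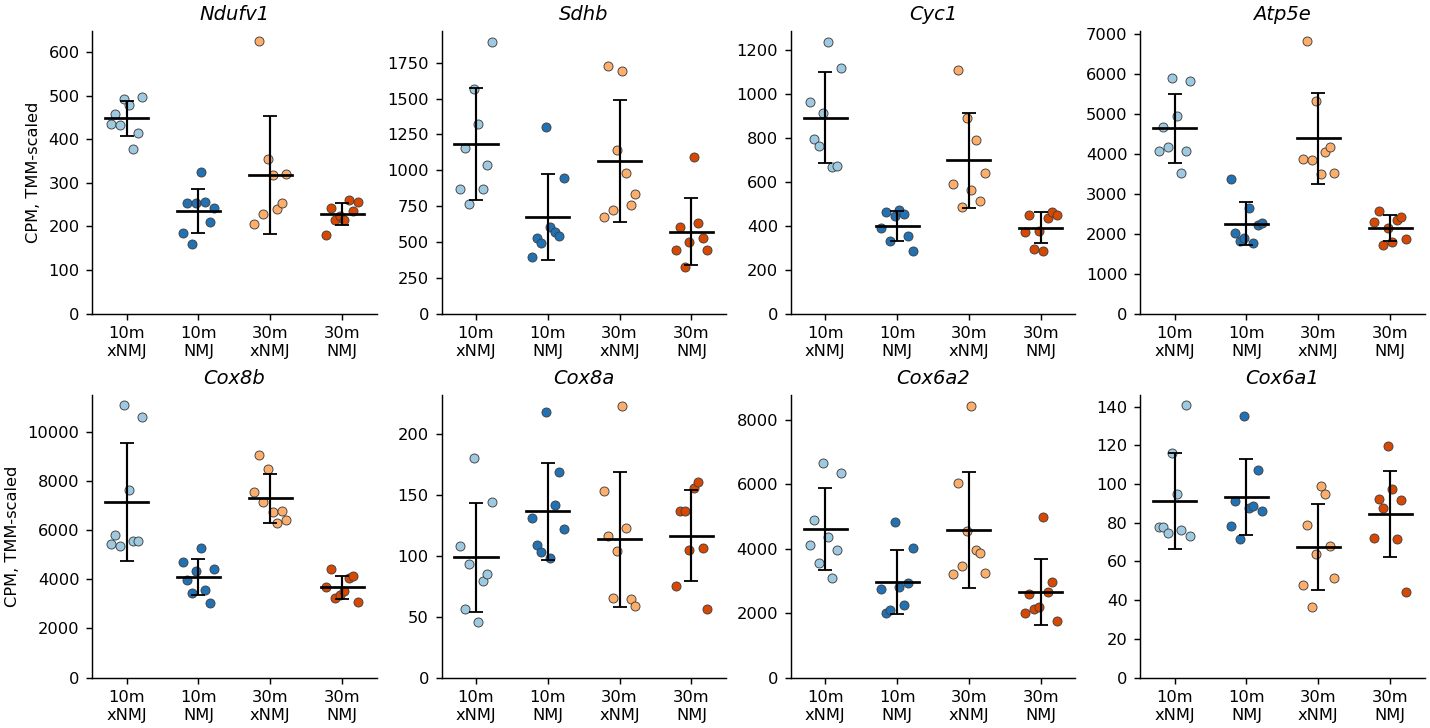
CPM (TMM-scaled) of Ndufv1, Sdhb, Cyc1, Atp5e, Cox8b, Cox8a, Cox6a2 and Cox6a1 in the 4 groups. Points are libraries and bars give the mean and SD of 8 libraries. Cyc1, Atp5e and Cox8b do not overlap between regions at either age on this scale (on library totals Cyc1 and Atp5e passed at 10 months alone and Cox8b at neither age), whereas Cox8a and Cox6a1 overlap at both ages.

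Complex IV, cytochrome c oxidase, had a median log2 fold change (TMM) of −0.61 at 10 months, with 8 of 14 members tested lower, and of −0.73 at 30 months, with 10 lower. Cox8b (chr7:140898945-140900446, minus strand) was the most abundant of all members per length, with a TPM of 20125 ± 4613 (xNMJ) and 16172 ± 2576 (NMJ) at 10 months, and of 20474 ± 2115 (xNMJ) and 15666 ± 2072 (NMJ) at 30 months. In CPM it was at 5364, 5692 and 11078 in 10m xNMJ against 3030, 4141 and 5266 in 10m NMJ, and at 6285, 6954 and 9033 in 30m xNMJ against 3071, 3595 and 4397 in 30m NMJ. The regions did not overlap in CPM, although they did in TPM at both ages. The change was −0.80 ± 0.16 (TMM, adjusted p = 0.000824, edgeR) and −0.99 ± 0.16 (adjusted p = 8.59e-05). On library totals it was −0.26 (adjusted p = 0.266, edgeR) and −0.35 (adjusted p = 0.116).

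Cox8a (chr19:7215153-7217616, minus strand), the broadly expressed counterpart, was at 45.7, 88.9 and 180 CPM in 10m xNMJ and at 98.2, 126 and 218 CPM in 10m NMJ. All 8 of these NMJ libraries lay above the xNMJ median, and the change was 0.46 ± 0.28 (TMM, adjusted p = 0.329, edgeR), or 1.02 on library totals (adjusted p = 0.00724). At 30 months Cox8a changed by 0.04 ± 0.27 (TMM, adjusted p = 0.962, edgeR), or by 0.68 on library totals (adjusted p = 0.0717). With a library left out this 30-month change (TMM) lay between −0.06 and 0.25. Cox6a1 (chr5:115345642-115348981, minus strand) was at 73.1, 77.6 and 141 CPM in 10m xNMJ against 71.8, 88.2 and 135 in 10m NMJ, and at 36.4, 65.9 and 98.8 CPM in 30m xNMJ against 44.3, 89.7 and 120 in 30m NMJ. Its change was 0.03 ± 0.20 (TMM, adjusted p = 0.954, edgeR) and 0.33 ± 0.20 (adjusted p = 0.390), or 0.58 (adjusted p = 0.0478) and 0.95 (adjusted p = 0.00194) on library totals. With a library left out the 10-month change (TMM) of Cox6a1 lay between −0.06 and 0.15. Its muscle counterpart Cox6a2 (chr7:128205435-128206387, minus strand) changed by −0.64 ± 0.23 (TMM, adjusted p = 0.0694, edgeR) and by −0.79 ± 0.23 (adjusted p = 0.0241).

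The ratio of a muscle isoform to its broad counterpart within a library is free of the scaling between libraries but for the 1 added to each value. The log2 ratio of TPM (with 1 added) of Cox8b over Cox8a was 6.82 ± 0.55 (xNMJ) and 5.53 ± 0.52 (NMJ) at 10 months, and 6.73 ± 0.67 (xNMJ) and 5.64 ± 0.47 (NMJ) at 30 months (mean ± SD, n = 8). It ranged from 6.24 to 7.96 against 4.76 to 6.34 at 10 months, with a narrow overlap, and from 5.51 to 7.36 against 5.09 to 6.35 at 30 months. The 5.51 was that of 30m xNMJ replicate 5, and the next lowest xNMJ ratio, 6.21, also overlapped with NMJ. That of Cox6a2 over Cox6a1 was 5.44 ± 0.48 and 4.74 ± 0.34 at 10 months, and 5.87 ± 0.36 and 4.74 ± 0.45 at 30 months. At 10 months it ranged from 4.60 to 6.22 in xNMJ and from 4.25 to 5.33 in NMJ. At 30 months it ranged from 5.17 to 6.35 in xNMJ and from 3.99 to 5.46 in NMJ. The regions overlapped at both ages. Cox7a1 over Cox7a2 differed little, at 0.18 ± 0.39 and 0.05 ± 0.24 at 10 months and at 0.00 ± 0.27 and −0.15 ± 0.21 at 30 months. Cox7a1 (chr7:30184144-30186078, plus strand) and Cox7a2 (chr9:79755361-79759878, minus strand) both fell on the TMM scale at both ages, with log2 fold changes of −0.71 and −0.97 for Cox7a1 and of −0.53 and −0.77 for Cox7a2. The 10-month calls were near the threshold (adjusted p = 0.0467 for Cox7a1 and 0.0264 for Cox7a2, edgeR) and were lost in 14 and 4 of 32 fits that each left out a library, whereas no 30-month call was. Neither gene passed on library totals. The muscle isoform made up nearly all of the Cox8 and Cox6a transcripts in every group, whereas the 2 Cox7a isoforms were at like levels per length.

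**Figure D4:**
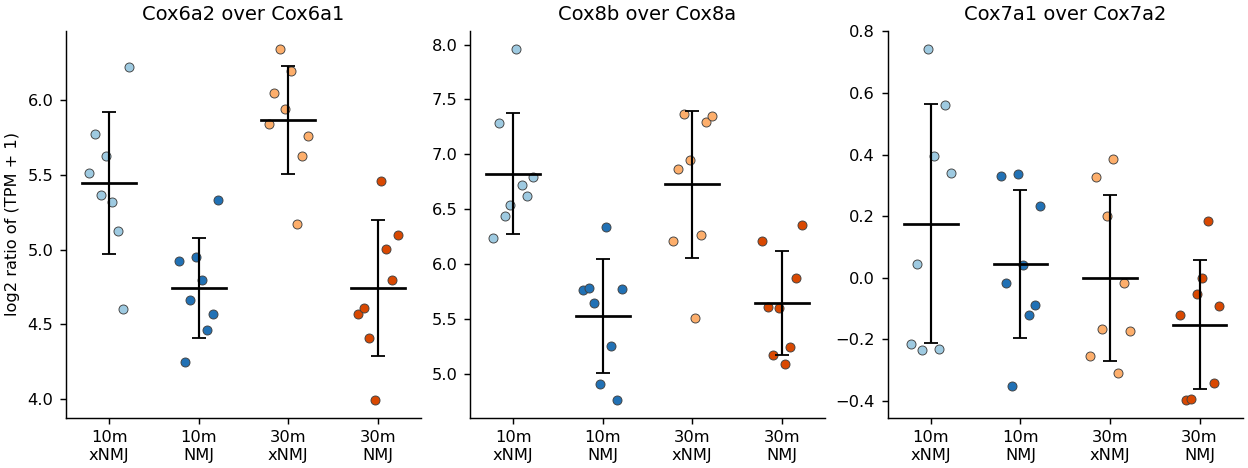
Log2 ratio of TPM (with 1 added to each) of the muscle over the broadly expressed isoform for Cox6a, Cox8 and Cox7a in the 4 groups. Points are libraries and bars give the mean and SD of 8 libraries. The Cox8b over Cox8a ratio was 6.82 in 10m xNMJ and 5.53 in 10m NMJ on average, whereas the Cox7a1 over Cox7a2 ratio was near 0 in all groups.

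Of the other complex IV genes, Cox6c had the second highest TPM of all members, at 9135 ± 2089 in 10m xNMJ and 8711 ± 1196 in 10m NMJ, and changed by −0.54 ± 0.20 (TMM, adjusted p = 0.0736, edgeR) at 10 months and by −0.74 ± 0.20 (adjusted p = 0.0131) at 30 months. Cox4i1, the regulatory subunit that binds ATP, changed by −0.58 ± 0.18 (adjusted p = 0.0327, edgeR) and by −0.72 ± 0.18 (adjusted p = 0.00834). Cox7a2l, a factor that joins complexes III and IV, changed by −0.72 ± 0.23 (adjusted p = 0.0343, edgeR) and by −0.73 ± 0.23 (adjusted p = 0.0360). Its call was lost in 8 of 32 fits that each left out a library at 10 months and in 7 of 32 at 30 months, when the change was −0.37 without 30m xNMJ replicate 2, and it did not pass on library totals. Cox7b changed by −0.47 ± 0.21 and by −0.73 ± 0.22, and Cox6b1 by −0.33 ± 0.20 and by −0.52 ± 0.20, of which only Cox7b at 30 months passed (adjusted p = 0.0258, edgeR). Leaving out a library also lost the call of Cox4i1 in 8 of 32 fits and of Ndufa4 in 1 at 10 months, and at 30 months that of Ndufa1 in 8, of Uqcr10 in 6, of Cox6a2 in 5 and of Cox7b in 5, whereas at 10 months Cox6a2 passed in 5 of these fits and Cox6c in 2. The genes known mainly from other tissues were near or at 0. Cox4i2, known from lung, reached 5.52 CPM at most, Cox6b2, known from testis, 4.82 CPM, and Cox7b2 11.6 CPM in 1 library. Cox8c, also known from testis, had 0 counts in all 32 libraries, and a count of 0 allows up to 3 counts, or 0.182 to 0.745 CPM of the library total. These limits cover counting error only, since the reads carried no molecular identifiers.

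Promoter sequence was examined for what the members share beyond their symbols. RefSeq windows of 300 bases (250 before to 50 after the start, GRCm38.p6) were at hand for 66 of the 84 members, with 71 windows in all. The letters GCGCANGCG, bound by nuclear respiratory factor 1 (NRF1), stood on either strand in 29.6% of the members' windows (21 of 71), in 12.1% of the 13474 windows of genes tested and in 6.25% of all 32851 windows. AAGGTCA, a site of estrogen-related receptors, stood in 11.3% of the members' windows (8 of 71), 3.48% of those of genes tested and 4.72% of all windows. CCGGAAGT, a site of the ETS family, stood in 7.04%, 7.19% and 3.89%. Base composition was not matched between these sets. Members with the NRF1 letters had medians of −0.51 (7 of 20 lower) at 10 months and −0.73 (12 of 20 lower) at 30 months (TMM). Those without had medians of −0.50 (19 of 44 lower) and −0.67 (24 of 44 lower), and the difference was not tested.

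The windows of Cox8b and Cox8a, of Cox6a1 and of the dimer subunits of complex V are shown, as genes that fell at the NMJ (Cox8b, Atp5k and Atp5l) or did not pass (Cox8a and Cox6a1) on the TMM scale, from 150 bases before to 20 after the start, 5′ to 3′ along the gene, with the matches to these motifs in capitals. They lie at chr7:140900427-140900596 (Cox8b), chr19:7217597-7217766 (Cox8a), chr5:115348939-115349108 (Cox6a1), chr5:108434380-108434549 (Atp5k) and chr9:44920723-44920892 (Atp5l), all on the minus strand.
Cox8b: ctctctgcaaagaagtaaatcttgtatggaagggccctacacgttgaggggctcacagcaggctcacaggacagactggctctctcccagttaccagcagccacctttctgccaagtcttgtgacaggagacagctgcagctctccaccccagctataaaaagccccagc
Cox8a: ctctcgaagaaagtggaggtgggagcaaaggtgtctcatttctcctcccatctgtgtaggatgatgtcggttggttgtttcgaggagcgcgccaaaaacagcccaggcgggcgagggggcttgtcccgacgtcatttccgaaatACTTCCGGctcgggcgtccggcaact
Cox6a1: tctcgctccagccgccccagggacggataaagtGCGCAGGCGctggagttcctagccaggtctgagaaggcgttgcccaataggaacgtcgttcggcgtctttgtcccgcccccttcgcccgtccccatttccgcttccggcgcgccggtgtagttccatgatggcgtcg
Atp5k: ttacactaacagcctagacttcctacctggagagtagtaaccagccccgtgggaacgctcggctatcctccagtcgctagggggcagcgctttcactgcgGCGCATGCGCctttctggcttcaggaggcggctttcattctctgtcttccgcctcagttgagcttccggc
Atp5l: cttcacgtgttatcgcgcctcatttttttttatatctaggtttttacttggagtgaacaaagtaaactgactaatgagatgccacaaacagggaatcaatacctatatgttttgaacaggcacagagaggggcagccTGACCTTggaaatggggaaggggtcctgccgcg
The Cox8a capitals are the ETS letters read on the other strand, and those of Cox6a1 and Atp5k are the NRF1 letters. The capitals of Atp5k read the same on both strands, so that the same site matched on each. Those of Atp5l are the estrogen-related receptor letters on the other strand. The Cox8b window held none of the 3 motifs.

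The second question was whether age changed these transcripts within a region. No member passed in either region. In NMJ the median log2 fold change of 30 against 10 months (TMM) was −0.23, beside 0.02 for all genes, and 72 of the 80 members were below 0, as were 47.9% of all genes, where 0% of all genes were called in either direction. A total of 5 members and 372 of the 13990 genes had an unadjusted p under 0.05 (edgeR). DESeq2 called no member for age in either region or for the interaction, where of all genes it called 1 lower in NMJ, 51 higher and 33 lower in xNMJ, and 2 higher and 7 lower for the interaction. The medians ranged from −0.28 in complex I to −0.06 in complex II. In xNMJ the median was −0.10, beside 0.04, and 61 were below 0, as were 46.8% of all genes, where 0.0429% of all genes (6) were called. An unadjusted p under 0.05 was found for 4 members and 1322 of the 13990 genes. Without 30m xNMJ replicate 5 the median in xNMJ was −0.22, and without 10m xNMJ replicate 8 it was −0.01. The median in NMJ was −0.36 without 30m NMJ replicate 5 and −0.15 without 10m NMJ replicate 4.

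**Figure D5:**
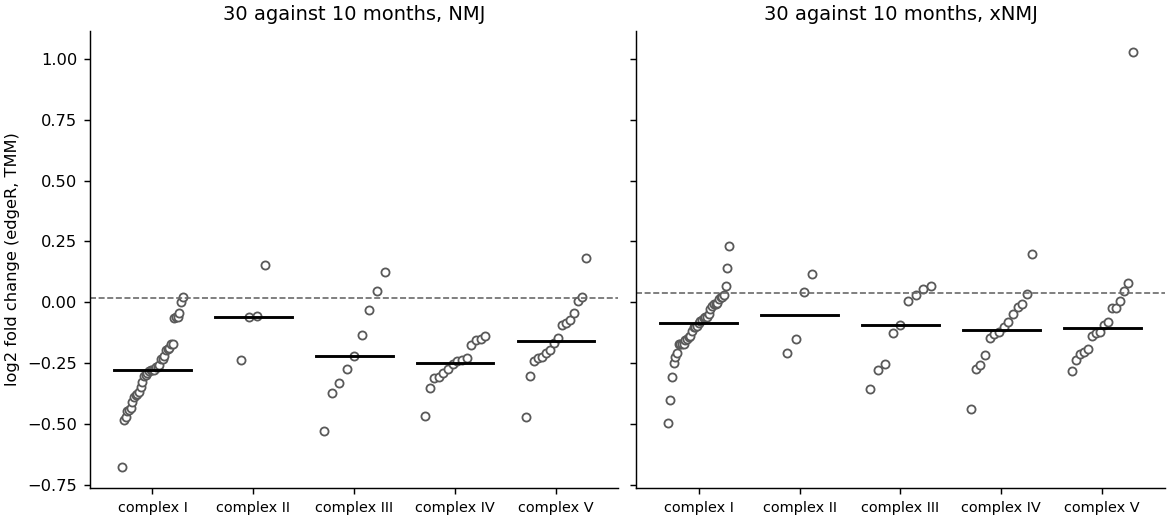
Log2 fold change of 30 against 10 months (edgeR, TMM scale) of the 80 members tested, by complex, in NMJ (left) and xNMJ (right). Each point is a gene, thick lines are medians of the complexes and the dashed line is the median of all genes. All points are open because no member passed an adjusted p of 0.05, and most lie below the dashed line in NMJ.

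The members with the smallest p for age are named although none passed. In NMJ, Ndufa1 was at 1331, 2026 and 3421 CPM at 10 months and at 890, 1346 and 1702 CPM at 30 months, a difference of −0.68 ± 0.18 (TMM, adjusted p = 0.9998, edgeR). Uqcr11 was at 2089 to 4560 CPM at 10 months and at 1426 to 2635 CPM at 30 months, with −0.53 ± 0.19 (adjusted p = 0.9998, edgeR), and Ndufa3 at 1455 to 2085 CPM and at 1066 to 1648 CPM, with −0.38 ± 0.16 (adjusted p = 0.9998, edgeR). The ages overlapped in each. In xNMJ, Ndufv1 was at 378, 446 and 496 CPM at 10 months and at 205, 286 and 624 CPM at 30 months, with −0.49 ± 0.17 (adjusted p = 0.342, edgeR). Its highest 30-month value, in replicate 2, was above all 10-month values. Cox6a1 differed by −0.44 ± 0.20 (adjusted p = 0.496, edgeR) in xNMJ.

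The third question was whether the region difference itself changed with age, which the interaction tested. No member passed, with 0% of all genes called, and the median log2 interaction was −0.14 (TMM), beside −0.01 for all genes. The median was −0.07 without 30m xNMJ replicate 5 and −0.06 without 10m NMJ replicate 4, but −0.28 without 30m NMJ replicate 5. That of complex II moved from −0.10 to 0.06 without 30m xNMJ replicate 5. Among members, only Uqcr11 had an unadjusted p under 0.05, as did 708 of the 13990 genes, with an interaction of −0.56 ± 0.27 (adjusted p = 0.974, edgeR), while Ndufv1 was at 0.45 ± 0.25 and Ndufa1 at −0.45 ± 0.26 (adjusted p = 0.9999 for each, edgeR). The larger number of members that fell at 30 than at 10 months was thus not a tested difference.

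Libraries of 1 group differed much in their OXPHOS share, and the high ones bore the same numbers in both regions. At 10 months the highest shares of counts were 17.7% and 16.0% in xNMJ replicates 8 and 4, and 16.2% and 14.2% in NMJ replicates 4 and 8. At 30 months they were 16.6% and 14.1% in xNMJ replicates 5 and 2, and 13.5% and 11.5% in NMJ replicates 5 and 2. Over the 8 numbers the shares of both regions correlated at r = 0.91 (rho = 0.90) at 10 months and at r = 0.86 (rho = 0.81) at 30 months, and at r = 0.85 and 0.37 without the pair of highest xNMJ libraries of each age, so that at 30 months the relation rests on those. The labels did not say whether a number marks an animal.

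Members varied unequally within a group. The median over groups of the SD of log2 CPM was lowest in Atp5b, at 0.22, Cox8b, at 0.23, and Atp5l, at 0.24. It was 0.65 in Atp5g1, 0.66 in Ndufs8 and 0.69 in Sdhd, and above these lay only Atp5s, at 1.29, and Ndufa4l2, at 1.64, the members with the lowest TPM among those tested. The members' transcripts were short, with a median length of 683 bases, against 2400 for all genes tested. The 28 members of at least 900 bases had a median log2 fold change (TMM) of −0.63 at 10 months and −0.70 at 30 months, and the 51 shorter ones of −0.52 and −0.74. Ndufb6, Uqcrc2 and Atp5j are uncertain, because 34.5%, 25.2% and 11.7% of the 31-base words in their transcripts also occur in Smim27, Pdzd9 and Gabpa.

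Other genes of energy metabolism were set beside the members on the TMM scale. In fatty acid oxidation, 15 of 17 genes fell at 10 months and 13 at 30 months, with medians of −1.21 and −1.03, and the medians were −0.65 and −0.42 on library totals. Among 17 genes of the TCA cycle and pyruvate dehydrogenase, 13 and 11 fell, with medians of −0.81 and −0.73 (−0.26 and −0.10 on library totals). Of 13 glycolytic genes 8 and 6 fell (medians −0.61 and −0.62, or −0.06 and 0.01 on library totals). Among 11 OXPHOS genes outside the rule, Slc25a4, the ATP/ADP carrier of muscle, Slc25a3, the phosphate carrier, Ckmt2, the mitochondrial creatine kinase, and the channels Vdac1 and Vdac2 fell at both ages, and Cycs and Usmg5 at 30 months, whereas Atpif1, the ATP synthase inhibitor, rose at 10 months (medians −0.45 and −0.62, or 0.10 and 0.02 on library totals). Of 42 OXPHOS assembly factors 4 and 5 fell (medians −0.44 and −0.50), and of 78 mitochondrial ribosomal proteins 7 and 7 (medians −0.31 and −0.38), in each case with a positive median on library totals. Among 18 regulators of mitochondrial biogenesis, Ppargc1a, Perm1, Ppara and Esrra fell at 10 months and Esrra alone at 30 months (medians −0.53 and −0.48, or −0.01 and 0.12 on library totals).

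Fibre and other cell markers moved with region as well. Fast fibre genes had medians of −0.61 and −0.79 (TMM), with 4 and 6 of 11 lower, or −0.06 and −0.17 on library totals. Of 7 slow fibre genes tested, Casq2 and Atp2a2 rose and Myl3 fell at 10 months, and Atp2a2 rose at 30 months (medians −1.48 and 0.34, or −0.95 and 0.88 on library totals). Muscle fibre genes had medians of −0.61 and −0.19 (−0.05 and 0.44 on library totals), with Ckm and Acta1 lower at both ages. Schwann cell markers rose in 7 of 8 cases at both ages (medians 5.42 and 4.96, or 5.98 and 5.54 on library totals), with a summed level of 15.5 CPM (xNMJ) and 239.7 CPM (NMJ) at 10 months and 17.9 and 212 CPM at 30 months. Fibroblast markers rose in 5 and 4 of 6 (medians 2.52 and 2.25, or 3.07 and 2.85 on library totals), summing to 207 CPM (xNMJ) and 1243.5 CPM (NMJ) at 10 months and to 184 and 1096 CPM at 30 months, most of it Dcn. Macrophage markers rose in 4 and 3 of 6 (medians 3.84 and 2.59, or 4.40 and 3.27 on library totals), with sums of 10.8 and 92.5 CPM at 10 months and of 17.2 and 69.2 CPM at 30 months and Mrc1 as the most abundant. No endothelial marker passed at 10 months and Cdh5 fell at 30 months (medians −0.64 and −0.84 of 5, or −0.07 and −0.20 on library totals). Of pericyte and smooth muscle markers, Rgs5 and Abcc9 fell at 30 months (medians −0.49 and 0.09 of 6, or 0.05 and 0.75 on library totals). Sdc4, among 3 muscle stem cell markers tested, rose at both ages (medians 0.47 and 0.12, or 0.96 and 0.74 on library totals). Plin1 fell at both ages and Fabp4 at 30 months among 3 adipocyte markers (medians −0.51 and −1.02, or 0.04 and −0.41 on library totals), and no red blood cell marker passed (medians −0.26 and −1.22 of 5, or 0.29 and −0.59 on library totals). The part of other cells in the lower OXPHOS level relative to the median gene was not tested.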

How the data were processed

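RNA was sequenced from 32 libraries of laser-captured NMJ and xNMJ regions. Per the labels and the study's methods, the authors trimmed reads with cutadapt 1.9.1 and quantified them with kallisto 0.43.1 on Ensembl release 92 (GRCm38), and deposited a table of counts per gene, which are not normalized, and a table of TPM, scaled for transcript length and library size. The authors divided a read that matched several transcripts equally among them, so that counts of genes sharing sequence are less certain.

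Genes with at least 1 CPM in at least 8 libraries were fitted with edgeR 4.0.16 (TMM, quasi-likelihood, 1 coefficient per group over all 4 groups, R 4.3.3), with p-values adjusted by Benjamini-Hochberg over all 13990 genes and a threshold of 0.05. CPM values are TMM-scaled. Levels are TPM, and ratios used log2(TPM + 1). Named members were the 2 of each complex with the highest TPM, the Sdh genes, the isoform groups, the 5 largest falls of each comparison with calls, the 3 smallest p-values where none passed, and members failing the filter. Others are named in counts, and some genes that the rule or a list holds are not reported here. Members and lists were chosen with earlier results of these data known. Alternatives were library totals, DESeq2 1.42.0 and its size factors, limma 3.58.1 on log2(TPM + 1), no filter, insert size as covariate, the compared groups alone, a replicate block and each library left out. Tables and figures used Python 3.11.15, numpy 2.4.6, pandas 2.3.3 and matplotlib 3.10.9. Gene positions are GRCm38, and 39 gene names shared by several identifiers, none of them members, were kept apart. Of the data columns given, 0 were left unused.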

Additional observations from a re-analysis of the deposited data

Results flagged for a closer look

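In 17 of 153 groups of 8 libraries, a single library lay farther from the others than Dixon's test allows at the 95% level, which chance gives in about 1 in 20 groups, and libraries shared between genes make these not independent. The values are TMM-scaled CPM. 10m NMJ replicate 4, a library with a high OXPHOS share, was highest for Atp5g3 (1978, next 1536), Cox6b1 (2266, next 1675), Ndufa1 (3421, next 2280), Ndufa4 (5035, next 3697) and Uqcr11 (4560, next 2888). 30m NMJ replicate 5 was highest for Cox4i1 (3478, next 2553), Cox6a2 (4987, next 2961), Sdhb (1094, next 630.9) and Sdhd (373.0, next 165.3). 30m xNMJ replicate 2 was highest for Cox7a2l (521.0), Ndufv1 (624.1), Uqcrc1 (1313) and Cox4i2 (1.953). Without it, 36 members were lower at 30 months instead of 48, as were 503 of 13966 genes instead of 595 of 13990. At low levels, Cox6b2 was at 4.816 in 10m NMJ replicate 3, Cox7b2 at 11.57 in 30m xNMJ replicate 8, and Ndufa4l2 at 5.04 in 10m NMJ replicate 5 and at 13.2 in 30m xNMJ replicate 4. What set these libraries apart was not tested.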

How the results depend on the processing

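The size of the region difference rests on the scaling. On library totals (chosen after seeing the data), 2 members were higher and 7 lower at 10 months with a median log2 fold change of 0.003154, and 1 higher and 0 lower at 30 months with a median of −0.09634, and 39 and 53 of the 80 were below 0 in place of 77 and 78. With limma on log2(TPM + 1), also chosen after seeing the data, 1 was higher and 11 lower (median −0.09326) at 10 months, and 2 higher and 4 lower (median −0.1006) at 30 months, where of all genes 2681 were higher and 237 lower (median 0.37) and 3501 higher and 60 lower (median 0.49). Among the named members called on the TMM scale, signs turned on library totals for Cox7a2 at 10 months (0.01851) and for Ndufa1 (0.03118), Sdha (0.00808) and Uqcr10 (0.06056) at 30 months, and with limma for Cox7a2l (0.04738) and Uqcr10 (0.03906) at 30 months. The cause was not tested. Every median of the region difference but that of library totals at 10 months was below 0. By DESeq2 36 and 50 members were lower (814 and 769 of all genes), with its size factors 29 and 47 (639 and 590), without the filter 24 and 38 of 83 (640 and 515 of 24167), with insert size 35 and 51 (434 and 565) and with the compared groups alone 35 and 44 (693 of 11996 and 554 of 12339). With a replicate block 54 and 67 were lower (medians −0.54 and −0.70), where 797 and 661 of all genes were (medians 0.13 and 0.17), and none passed the interaction (median −0.16). Deviations of log2 CPM from the group mean, over all genes tested, were correlated between NMJ and xNMJ libraries. Same-numbered libraries were at −0.00159 to 0.187 at 10 months and at −0.0175 to 0.366 at 30 months. Those of other numbers averaged −0.0128 and −0.011. At each age 4 of 8 NMJ libraries correlated best with the xNMJ library of their own number, and the labels do not pair them. Leaving out a library gave 26 (without 10m xNMJ replicate 8) to 39 (without 10m NMJ replicate 8) lower members at 10 months. At 30 months it gave 36 (without 30m xNMJ replicate 2) to 63 (without 30m NMJ replicate 5). Of all genes, 655 of 13949 and 638 of 13924 were lower in these 10-month fits, and 503 of 13966 and 607 of 13919 in these 30-month fits. Over all fits the members' medians were −0.63 to −0.45 and −0.83 to −0.62. The medians for age were then −0.36 to −0.15 in NMJ and −0.22 to −0.01 in xNMJ, and that of the interaction −0.28 to −0.06. Depth limits the genes near 0, such as Cox4i2 and Ndufa4l2.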
